A study of Mus musculus with 1 sample.

Results

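The genes of Reelin signalling were followed through the cells of the newborn mouse cortex. The 8 genes were taken by symbol, as those of the secreted ligand (Reln), its receptors (Lrp8 and Vldlr), the adaptor that the receptors bind (Dab1), the next links in the chain (Crk, Crkl and Rapgef1) and the regulator of the dynein motor (Pafah1b1). All 8 of the 8 were found among the 51912 genes of the table. The data came from sc-RNA Seq of 1 library of the cerebral cortex of P0 (postnatal day 0) WT C57BL/6 mice. The label gives their genotype as wild type, and no treatment is described. In the paper, the SERPINA3 knock-in line was also bred with B6D2F2 mice. The number of animals pooled was not given in the sources used here. The study set this library beside a SERPINA3 knock-in cortex, which was not analysed here.

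Reelin is a large glycoprotein that is secreted near the brain surface and steers migrating neurons into layers. It binds the lipoprotein receptors ApoER2 (the product of Lrp8) and VLDLR, which leads to phosphorylation of DAB1 by kinases of the Src family, and then to recruitment of CRK and CRKL and activation of the Rap1 exchange factor that Rapgef1 encodes. LIS1, the product of Pafah1b1, binds dynein and is needed for movement of the nucleus, and its gene is mutated in human lissencephaly.

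The library held 11062 cells and 90346034 unique molecular identifiers (UMIs, each standing for 1 captured transcript), and 4 cells were dropped because fewer than 200 genes were detected in them. A cell held a median of 7196.5 UMIs in the table as deposited. Cells were grouped by gates, which ask for a minimum number of UMIs of several marker genes and use none of the 8 genes. A gate gave 29 Cajal-Retzius-like cells, 390 inhibitory, 6513 excitatory, 386 newborn excitatory, 99 dividing, 300 radial glia or astrocyte-like, 289 oligodendrocyte lineage-like and 18 endothelial-like cells. There were also 23 mural and 20 microglia-like cells. A further 2667 cells (24.1%) passed no gate and held a median of 1146 UMIs, of which a median of 17.8% were mitochondrial, and 324 cells passed several class gates. Levels are given as CPM (counts per 1000000), the summed UMIs of a gene per 1000000 UMIs of non-mitochondrial genes of the same cells. Because the 3′ method counts 1 UMI per molecule, CPM were not divided by gene length. With 1 library there is no replicate error and no test was made. Cells are not replicates, and brackets give 95% intervals for counting error only. Shares of cells with a UMI depend on depth, so they were also taken after each cell had been thinned to 2000 UMIs, which left out 2427 shallower cells.

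Each gate was checked against markers that it did not use. In the Cajal-Retzius-like, inhibitory and newborn gates 5 of 5 such markers were higher than in the rest of the cells, and in the excitatory gate 4 of 5. The layer gates were less secure. Neurons gated on Cux1, Cux2, Pou3f2 and Mdga1 were split by Igfbpl1, a gene of young migrating neurons, into 2717 Igfbpl1-positive cells (at least 2 UMIs, 3 of 4 check markers higher) and 298 others. In those 298 cells 1 of 4 layer II/III check markers was higher and the cells were led by Nr4a2, Scg2 and Lmo4, so that they are called other Cux-gated neurons here. In the 996 cells gated on Rorb or Inhba 0 of 4 layer IV check markers were higher, and the cells are called by their gate. The layer V, VI and VIb gates held 158, 124 and 43 cells, with 3 of 4, 3 of 4 and 3 of 3 check markers higher, and 750 cells passed both the layer V and the layer VI gate. The 149 Lhx6 interneuron-like cells and the 126 Adarb2 interneuron-like cells had 3 of 4 and 4 of 5 check markers higher.

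Reln UMIs came mainly from a handful of cells. Of 3900 Reln UMIs in the library, 2480 or 63.6% (62.1 to 65.1) were found in the 29 Cajal-Retzius-like cells, which made up 0.262% of all cells. Cajal-Retzius cells are early-born neurons of the outermost layer and the best known source of Reelin. Their Reln level was 4609.6 CPM (4429.9 to 4794.6), which placed Reln 7th among their non-mitochondrial genes. The lowest cell held 0 Reln UMIs, the median cell 88 and the highest 154, and 28 of the 29 cells held at least 10. On the scale of a single cell, Reln ran from 0 through a median of 4702.5 to 8980.9 CPM. Reln was thus high in all but 1 of these cells, and no other gated group reached their level. The cells were large, with a median of 18228 UMIs, and 11 of the 29 also passed the excitatory gate. Without those 11 cells the gate held 39.6% of the Reln UMIs, and this difference follows from the fewer cells counted. With gates on thinned cells, when 1 cell passed the gate, the share was 2.66%.

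Across the whole library 29 cells held at least 20 Reln UMIs, and 27 of them were Cajal-Retzius-like while 2 passed no gate. Of the 43 cells with at least 10 Reln UMIs, 28 were Cajal-Retzius-like and 7 were Lhx6 interneuron-like. The other 8 comprised 1 Adarb2 interneuron-like cell, 1 Igfbpl1-positive neuron, 1 layer VIb-like neuron, 3 cells of no gate and 2 of several gates.

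**Figure D1:**
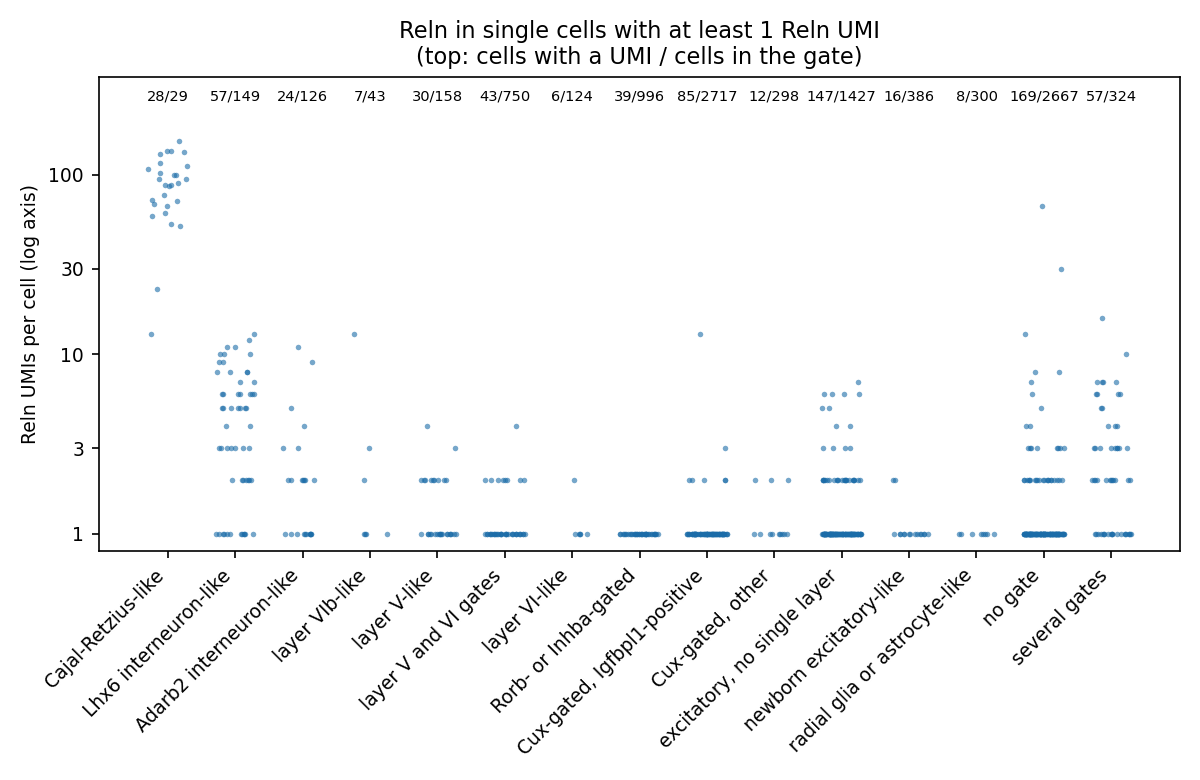
Reln UMIs per cell (log axis) for cells with at least 1 Reln UMI, 1 point per cell, by group on the x axis; the numbers at the top are the cells with a UMI over all cells of the group. The 28 Cajal-Retzius-like cells shown sit between 13 and 154 UMIs, the Lhx6 interneuron-like cells reach 13, and nearly all points of the layer gates sit at 1 or 2.

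Among neurons, inhibitory cells came next in level but not in share of the Reln UMIs, of which the far more numerous excitatory cells held 12.9% (11.9 to 14.02). The 390 inhibitory cells held 357 Reln UMIs, 9.15% (8.27 to 10.1) of the total, at 168 CPM (151 to 186). Relative to all UMIs the Cajal-Retzius-like cells held 27.4 (24.5 to 30.7) times as much. The inhibitory level was in turn 22.2 (19.4 to 25.5) times that of all excitatory cells, a ratio higher than that of 99.4% of the 15157 genes with enough UMIs. In this comparison 17.5% of all genes differed at least 2-fold either way, 8.64% upward and 8.83% downward, and of the 8 members Reln was higher and Dab1 lower. With cells of several gates kept, excitatory cells held 0.0831 of the inhibitory Reln level in place of 0.0450, and the Cajal-Retzius-like over inhibitory ratio was 41.6. The latter was 52.0 with gates on thinned cells, when 1 cell passed the Cajal-Retzius gate. The inhibitory share of the Reln UMIs was 13.5% with cells of several gates kept and 3.03% with gates on thinned cells.

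Within the inhibitory cells Reln was uneven. The Lhx6 interneuron-like cells, which stem from the medial ganglionic eminence, held 273 Reln UMIs at 249 CPM (220 to 280), seen in 57 of 149 cells. The Adarb2 interneuron-like cells, from the caudal ganglionic eminence, held 60 Reln UMIs at 107 CPM (81.7 to 138), and 24 of 126 cells had one. The ratio was 2.33 (1.75 to 3.13), and 1.52 (0.930 to 2.48) with gates on thinned cells. After thinning, 19.0% (13.0 to 26.3) of the Lhx6 group and 12.1% (6.76 to 19.4) of the Adarb2 group had a Reln UMI, and these intervals overlapped, so that the difference in level was not detectable in the share of cells. Inhibitory cells that fitted no single group held 55.1 CPM (34.5 to 83.4).

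Somatostatin, a peptide of one large class of cortical interneurons, marked the Reln-rich part of the Lhx6 group. The 59 Lhx6 cells with at least 2 Sst UMIs held 213 Reln UMIs at 366 CPM (318 to 418), detected in 41 cells, with a median of 3 and a maximum of 12. The other 90 cells held 60 Reln UMIs at 117 CPM (89.1 to 150), with a UMI in 16 cells and a maximum of 13. The ratio of the levels was 3.13 (2.34 to 4.25). The Sst-positive cells were also deeper, at a median of 9388 UMIs against 5898.5. After thinning, 32.2% (20.6 to 45.6) of them had a Reln UMI against 10.2% (4.78 to 18.5) of the others, with intervals that did not overlap. Neurogliaform interneurons, which carry Ndnf or Lamp5 in the mature cortex, could hardly be looked at, since only 2 Adarb2 cells had a UMI of either gene, and 1 of them held 11 Reln UMIs. Without that cell the Adarb2 group stood at 88.1 CPM (65.2 to 116).

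Excitatory neurons held little Reln. The 6513 excitatory cells together held 504 Reln UMIs at 7.56 CPM (6.92 to 8.25). Radial glia or astrocyte-like cells, which are not known as a source, held 3.84 CPM (1.66 to 7.57) and oligodendrocyte lineage-like cells 4.07 CPM (1.86 to 7.72), with a UMI in 2.67% and 2.42% of cells at median depths of 7174 and 7677 UMIs. The Rorb- or Inhba-gated neurons at 2.93 CPM (2.08 to 4.01) and the Igfbpl1-positive neurons at 4.95 CPM (4.05 to 6.00) lay at this background, with a UMI in 3.92% and 3.13% of cells at 12841 and 7515 UMIs. Mural and microglia-like cells held 0 Reln UMIs, which allows up to 24.5 and 37.5 CPM.

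Reln was above that background in some of the other excitatory gates. Layer V-like neurons held 44 Reln UMIs in 30 of 158 cells, at most 4 in a cell, at 21.1 CPM (15.3 to 28.3), which was 7.20 (4.57 to 11.4) times the Rorb- or Inhba-gated level and 5.50 (2.56 to 13.5) times the radial glia level. At equal depth 4.43% (1.80 to 8.92) of them had a Reln UMI against 0.602% (0.221 to 1.31) of Rorb- or Inhba-gated neurons. Among radial glia or astrocyte-like cells the share was 1.05% (0.218 to 3.05), an interval that overlapped the layer V-like one. Layer V-like neurons could thus not be told apart from radial glia in this measure. The layer VIb-like level of 29.5 CPM (18.5 to 44.6) rested on 1 cell with 13 Reln UMIs and was 12.4 CPM (5.68 to 23.6) without it, when its interval overlapped that of radial glia. Layer VI-like neurons at 8.90 CPM (3.58 to 18.3) and cells of the joint layer V and VI gates at 7.48 CPM (5.62 to 9.76) also overlapped the radial glia interval. The 1427 excitatory cells that fitted no single layer, of which 14.9% scored high for doublets, held 11.6 CPM (10.1 to 13.3), so that the level was not particular to the deep-layer gates. Over all deep-layer gates Reln stood at 11.7 CPM (9.77 to 13.9) and over the upper-layer gates (Cux-gated and Rorb- or Inhba-gated) at 4.27 CPM (3.63 to 4.99), an upper over deep ratio of 0.365 (0.287 to 0.464). That was the only one of the 8 genes to differ at least 2-fold in this comparison, in which 12.4% of all genes did and 6.81% were lower in the upper-layer gates.

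UMIs of the 4 genes of the Cajal-Retzius gate (Trp73, Lhx1, Lhx5 and Ebf3) were counted beside Reln. There were 302 of them beside 2480 Reln UMIs in Cajal-Retzius-like cells, 17 beside 158 in the upper-layer gates and 4 beside 127 in the deep-layer gates. Because the Cajal-Retzius gate selects cells for these very genes, the quotients of the groups cannot be compared. The part of free RNA from Cajal-Retzius-like cells or interneurons in the low excitatory levels was not tested. Cells of no gate held 348 Reln UMIs (8.92% of the total, 92.7 CPM) beside 19 marker UMIs, and 1 cell alone held 67 of the 348.

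The receptors were expressed far more widely than the ligand. Lrp8 had 14710 UMIs in 57.6% of all cells, and Vldlr had 9627 UMIs in 43.1%. Lrp8 was highest among neural cells in newborn excitatory neurons, gated on Eomes, Neurod1, Sstr2 and Nhlh1. There it stood at 504 CPM (479 to 529) and was detected in 361 of 386 cells, with a lower quartile of 2, a median of 4 and a maximum of 15. The level was 236 CPM (206 to 269) in dividing cells, 221 CPM (215 to 227) in Igfbpl1-positive Cux-gated neurons, 115 CPM (110 to 121) in Rorb- or Inhba-gated neurons and 99.1 CPM (87.5 to 112) in the other Cux-gated neurons. Newborn neurons thus held 5.08 (4.46 to 5.81) times the Lrp8 of the other Cux-gated neurons, and 2.28 (2.15 to 2.41) times that of the Igfbpl1-positive ones. With the Igfbpl1-positive neurons counted into the second group, a choice made after seeing the data, the first ratio was 2.43 (2.29 to 2.57).

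Among the layer gates Lrp8 was lowest in layer V-like neurons at 54.2 CPM (44.7 to 65.2), and 71 of 158 cells had it. That was 0.380 (0.290 to 0.499) of the layer VI-like level of 142 CPM (117 to 171). The layer VI-like, layer VIb-like (129 CPM, 104 to 157), joint layer V and VI (132 CPM, 124 to 140) and Cajal-Retzius-like (109.7 CPM, 83.5 to 141) levels had overlapping intervals, and their order cannot be read. Both interneuron groups sat above them, at 203 CPM (178 to 232) for Lhx6 and 214 CPM (177 to 256) for Adarb2, and did not differ beyond counting error (ratio 0.951, 0.758 to 1.20).

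Vldlr was distributed differently. It was nearly missing from dividing cells at 9.74 CPM (4.45 to 18.5), being detected in 6 of 99, and low at 20.2 CPM (14.5 to 27.3) among radial glia or astrocyte-like cells, where 39 of 300 had a UMI and none more than 2. Newborn neurons held 62.5 CPM (54.1 to 71.9) and a UMI in 116 of 386 cells. Of the 386 cells 343 also passed the excitatory gate, and the 43 that did not held Vldlr at 16.6 CPM (4.51 to 42.4), Dab1 at 66.3 CPM (37.9 to 108) and Lrp8 at 766 CPM (660 to 885). The Igfbpl1-positive neurons held 105 CPM (100.3 to 109), and the layer V-like (132 CPM, 117 to 148), Rorb- or Inhba-gated (140.0 CPM, 134 to 147) and other Cux-gated neurons (144 CPM, 130 to 159) held the most among the gates of single layers, with intervals that overlapped each other and that of the excitatory cells of no single layer (133 CPM, 128 to 139). Layer VI-like neurons held 75.1 CPM (57.1 to 96.8) and layer VIb-like neurons 57.6 CPM (41.7 to 77.6). Newborn neurons held 0.435 (0.364 to 0.518) of the Vldlr of the other Cux-gated neurons, a ratio that was 0.573 (0.493 to 0.663), and so within 2-fold, with the Igfbpl1-positive neurons counted in and 0.193 (0.105 to 0.328) with gates on thinned cells.

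Progenitors, taken as the dividing and the radial glia or astrocyte-like cells together, held 0.140 (0.104 to 0.184) of the Vldlr of all excitatory cells, whereas their Lrp8 was 0.976 (0.883 to 1.07) of it. The direction of the Lrp8 ratio was not settled, since it was 1.20 (1.12 to 1.29) with cells of several gates kept and 0.704 (0.641 to 0.772) with gates on thinned cells, and the Vldlr ratio was 0.291 (0.249 to 0.339) in the former setting. In that comparison 41.3% of all genes differed at least 2-fold and 20.3% were lower in progenitors, and 2 of the 8 were lower (Vldlr and Reln). The Reln ratio of 0.484 (0.240 to 0.873) rested on 11 progenitor UMIs, and its interval reached values within 2-fold. The Lrp8 ratio joined unlike cells, as dividing cells held 236 CPM and radial glia or astrocyte-like cells 101 CPM. In interneurons the receptor pattern was set by Vldlr, with 198 CPM (163 to 238) in the Adarb2 group and 83.0 CPM (66.8 to 102) in the Lhx6 group (Lhx6 over Adarb2 0.419, 0.314 to 0.558). In Cajal-Retzius-like cells Vldlr stood at 31.6 CPM (18.4 to 50.6), which was 0.260 (0.152 to 0.417) of the level of all excitatory cells.

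**Figure D2:**
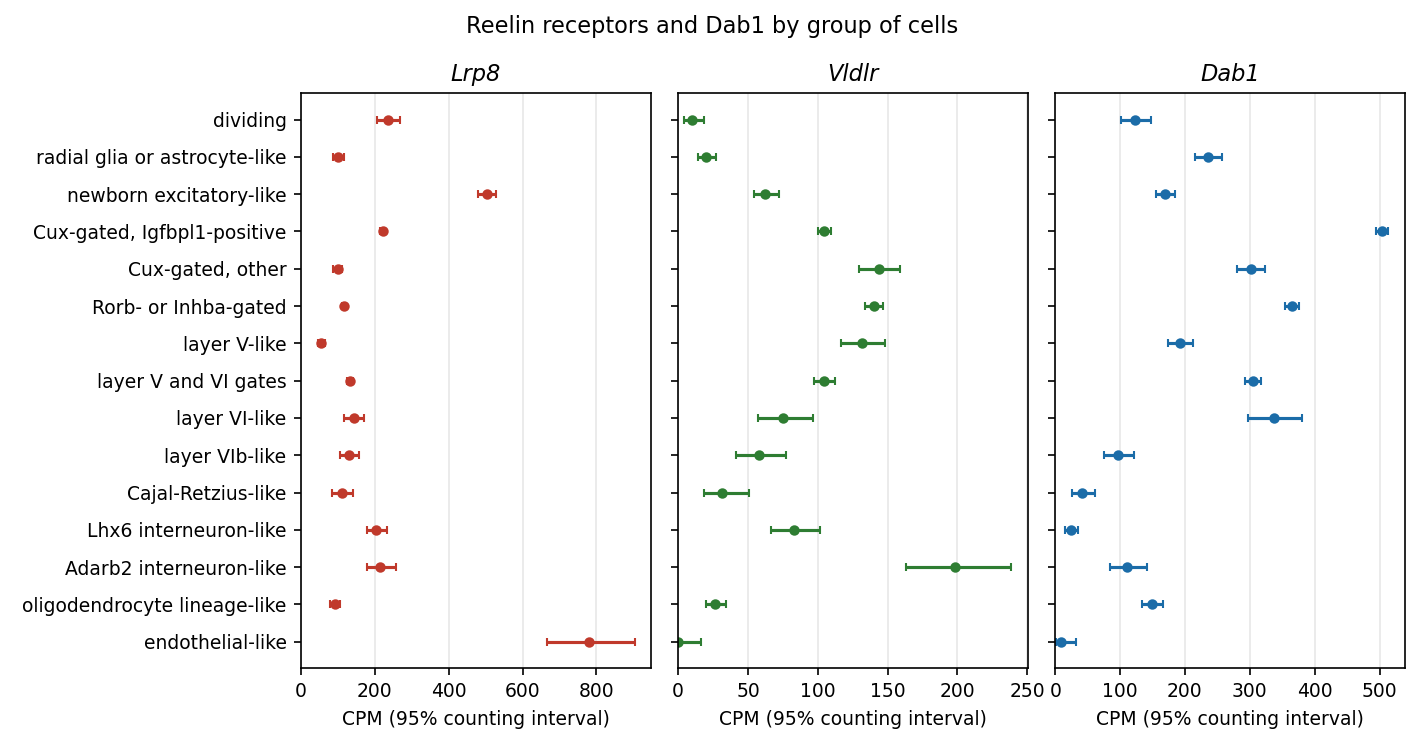
Levels of Lrp8, Vldlr and Dab1 in CPM (x axes from 0, each gene with its own scale) in 15 groups of cells, with points for summed UMIs and bars for 95% counting intervals. Among the groups shown, Lrp8 peaks in endothelial-like and newborn excitatory-like cells, Vldlr in Adarb2 interneuron-like cells and Dab1 in Igfbpl1-positive Cux-gated neurons.

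The split between the receptors followed from these levels. Vldlr supplied 39.6% (38.9 to 40.2) of the receptor UMIs of the library. Its share was 3.96% (1.83 to 7.39) in dividing cells, 11.0% (9.62 to 12.6) in newborn neurons and 32.1% (31.0 to 33.3) in Igfbpl1-positive neurons. It was 54.9% (53.2 to 56.5) in Rorb- or Inhba-gated neurons, 59.2% (55.3 to 63.0) in the other Cux-gated neurons and 70.9% (66.1 to 75.4) in layer V-like neurons. Layer VI-like neurons at 34.5% (27.4 to 42.1) and layer VIb-like neurons at 30.9% (23.4 to 39.3) lay on the Lrp8 side. The intervals of neighbours in the dividing, newborn and Igfbpl1-positive order did not overlap.

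**Figure D3:**
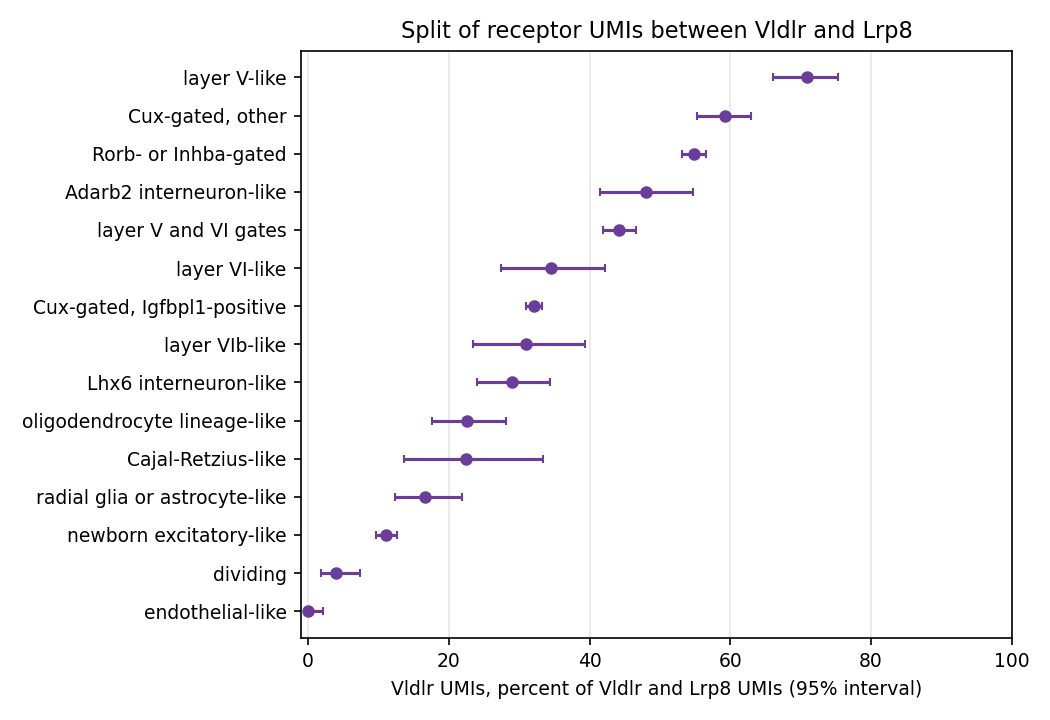
Vldlr UMIs as a percent of Vldlr and Lrp8 UMIs (x axis) in 15 groups of cells ordered by that share, with exact 95% binomial intervals. The share runs from 0% in endothelial-like cells through 11.0% in newborn excitatory-like cells to 70.9% in layer V-like cells.

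Dab1, the adaptor that passes the signal on, had 28253 UMIs, of which 86.5% (86.1 to 86.9) lay in the excitatory cells. These cells held 76.8% of all non-mitochondrial UMIs. The level was highest in Igfbpl1-positive Cux-gated neurons at 504 CPM (494 to 513), seen in 2343 of 2717 cells, with a median of 3 and a maximum of 25. It was 365 CPM (355 to 376) in Rorb- or Inhba-gated, 337 CPM (298 to 380) in layer VI-like and 301 CPM (281 to 323) in other Cux-gated neurons, and was lower at 192 CPM (174 to 212) in layer V-like and 96.4 CPM (75.4 to 121) in layer VIb-like neurons. The layer VI-like level was 3.50 (2.69 to 4.60) times that of layer VIb-like neurons. Upper-layer gates held 1.62 (1.56 to 1.69) times the Dab1 of deep-layer gates and 1.48 (1.40 to 1.58) times the Lrp8, and both ratios stayed below 2. The upper-layer Lrp8 came mainly from the Igfbpl1-positive neurons, which held 4641 of its 6439 UMIs at 221 CPM (215 to 227). Deep-layer gates held Lrp8 at 117 CPM (111 to 124). Neither the Rorb- or Inhba-gated (115 CPM) nor the other Cux-gated neurons (99.1 CPM) stood above that. For Dab1 both groups stood above the deep-layer 271 CPM, at 365 and 301 CPM. That deep-layer level joined unlike gates, as the joint layer V and VI gates held 305 CPM and layer VI-like neurons 337 CPM. The other Cux-gated neurons did not stand above either of these.

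Outside excitatory neurons Dab1 was present at 236 CPM (215 to 258) among radial glia or astrocyte-like cells, of which 218 of 300 had it, and in oligodendrocyte lineage-like cells at 149 CPM (133 to 166). The gated groups with the highest Reln levels, Cajal-Retzius-like and Lhx6 interneuron-like cells, held little Dab1. Dab1 stood at 40.9 CPM (25.6 to 61.9) in Cajal-Retzius-like cells, where 12 of 29 cells had a UMI, and at 23.7 CPM (15.5 to 34.8) in Lhx6 interneuron-like cells, where 21 of 149 cells had a UMI. The endothelial-like level of 9.01 CPM (1.09 to 32.5), from 2 UMIs, overlapped that of the Lhx6 group. The Adarb2 group held more, at 111 CPM (84.8 to 142) and a UMI in 39 of 126 cells. Lhx6 over Adarb2 the ratio was 0.215 (0.130 to 0.344), lower than that of all but 0.942% of the 5521 genes compared. Of the 7 members with enough UMIs there, Reln was at least 2-fold higher and Vldlr and Dab1 at least 2-fold lower in the Lhx6 group, in a comparison where 14.1% of all genes passed that fold (8.51% higher and 5.58% lower). All inhibitory cells together held 0.149 (0.123 to 0.179) of the Dab1 of excitatory cells.

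Dab1 and Lrp8 changed places between newborn and Cux-gated neurons. Newborn neurons held Dab1 at 170.0 CPM (156 to 185), which was 0.338 (0.309 to 0.368) of the Igfbpl1-positive level and 0.564 (0.505 to 0.630) of that of the other Cux-gated neurons. Between newborn and other Cux-gated neurons 15.0% of all genes differed at least 2-fold (7.54% higher and 7.43% lower in newborn neurons), and of the 6 members with enough UMIs Lrp8 did so upward and Vldlr downward. The newborn Dab1 UMIs were spread unevenly, as 138 of 386 cells had any while 10 cells held at least 10 and the highest held 20. The ratio of 0.564 moved with the settings. It was 0.298 (0.254 to 0.348) when each gate asked for 2 UMIs more and 0.0888 (0.0573 to 0.132) with gates on thinned cells, when 94 cells passed the newborn gate. It was 0.363 as a mean over single cells, and 0.354 (0.324 to 0.386) with the Igfbpl1-positive neurons counted in. Cells that scored high for doublets, droplets holding more than 1 cell, made up 9.59% of the newborn gate against 5.0% of all cells, and without them it was 0.486 (0.428 to 0.551).

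To look closer, newborn neurons were split by UMIs of Eomes, a transcription factor of intermediate progenitors and their newest progeny, a split made after the data had been seen. In the 112 cells with at least 3 Eomes UMIs Dab1 stood at 68.3 CPM (52.0 to 88.0), in the 88 cells with 1 or 2 at 121 CPM (96.7 to 148) and in the 186 cells with 0 at 251 CPM (226 to 277). Lrp8 stood at 591 CPM (541 to 645), 456 CPM (408 to 508) and 477 CPM (443 to 513) in the same order, and Vldlr at 41.6 CPM (29.2 to 57.7), 54.8 CPM (39.1 to 74.6) and 77.9 CPM (64.6 to 93.1). Dab1 was thus lower where Eomes was higher, with intervals that did not overlap, while the Lrp8 intervals of the latter groups and the Vldlr intervals of neighbours overlapped. In the group with 1 or 2 Eomes UMIs, however, the highest cell held 17 of the 88 Dab1 UMIs. The level without that cell was not taken. The median depths were 7151, 6608 and 6473 UMIs. At equal depth 6.31% (2.57 to 12.6), 6.90% (2.57 to 14.4) and 24.2% (18.2 to 31.0) of the cells had a Dab1 UMI, so that the first and second group could not be told apart in this measure.

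Cux-gated neurons were split by Igfbpl1 in the same way. With 6 or more Igfbpl1 UMIs the 2090 cells held Dab1 at 521 CPM (510 to 532) and Lrp8 at 246 CPM (239 to 254). With 2 to 5 UMIs the 627 cells held 449 CPM (430 to 468) and 139.7 CPM (129 to 150), with 1 UMI the 143 cells held 371 CPM (338 to 407) and 101 CPM (84.1 to 120), and with 0 UMIs the 155 cells held 241 CPM (216 to 268) and 97.4 CPM (81.9 to 115). Both genes were lower where Igfbpl1 was lower, except that the last pair of Lrp8 levels overlapped. Vldlr ran the other way, from 96.7 CPM (91.9 to 102) with 6 or more through 130.1 CPM (120 to 140) to 151 CPM (130 to 175) and 137 CPM (119 to 158), the last 3 overlapping. Cells with fewer Igfbpl1 UMIs were deeper, at medians of 7327.5, 8495, 9844 and 10186 UMIs. At equal depth a Dab1 UMI was found in 58.6% (56.4 to 60.7), 59.9% (55.8 to 63.8), 48.1% (39.3 to 57.0) and 30.8% (23.5 to 39.0) of cells, so that the intervals of the first and of the second pair of neighbours overlapped.

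Dividing cells held both patterns. The 24 dividing cells that also passed the newborn gate held Lrp8 at 456 CPM (382 to 541) and Dab1 at 38.0 CPM (19.0 to 68.0). The 75 others held Lrp8 at 135 CPM (108 to 167) and Dab1 at 161 CPM (131 to 195). The non-dividing radial glia or astrocyte-like cells lay on the side of the latter, with an overlapping Lrp8 interval (101 CPM, 87.7 to 115) and more Dab1 (236 CPM, 215 to 258).

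**Figure D4:**
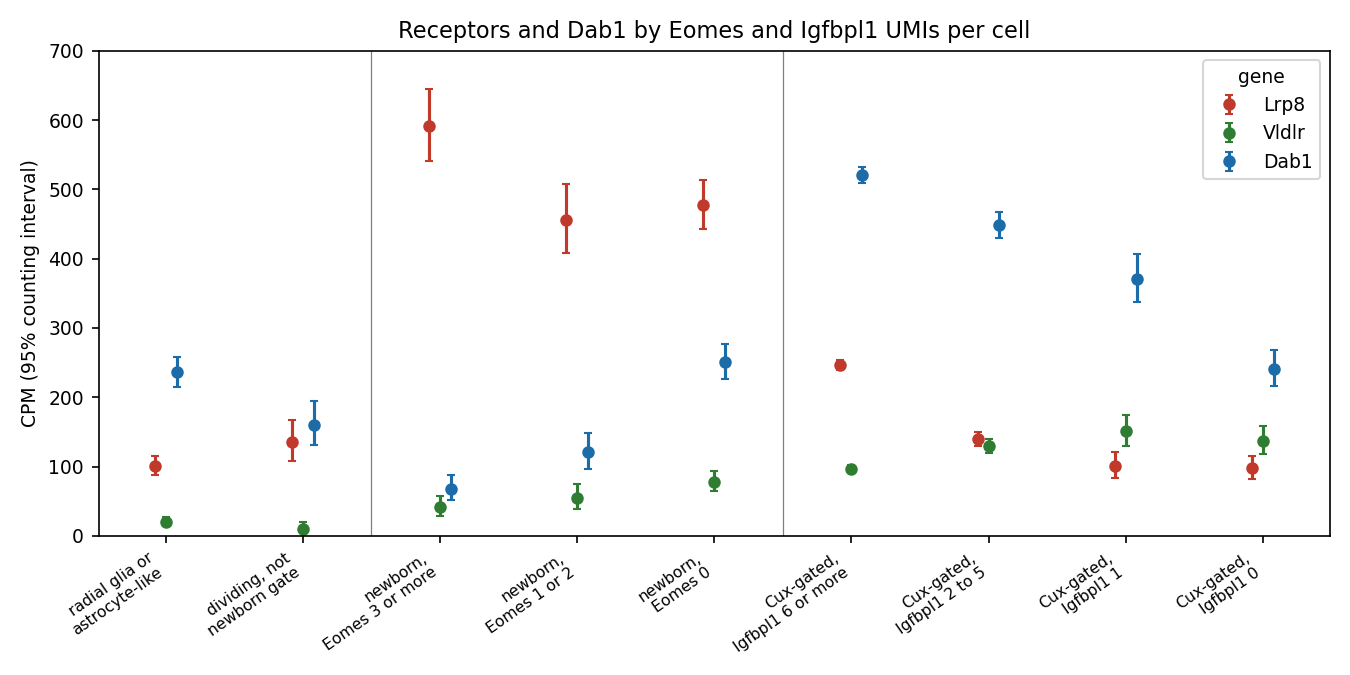
Levels of Lrp8, Vldlr and Dab1 in CPM (y axis, bars for 95% counting intervals) in progenitors, in newborn neurons split by Eomes UMIs per cell and in Cux-gated neurons split by Igfbpl1 UMIs per cell. Lrp8 is highest in newborn neurons at 456 to 591 CPM, Dab1 runs from 68.3 CPM in the most Eomes-rich cells to 521 CPM in the most Igfbpl1-rich Cux-gated cells, and Vldlr stays at or below 151 CPM.

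At equal depth the share of cells with both receptor and adaptor was largest, among the groups of cells with a single name, in Igfbpl1-positive neurons. After thinning, 27.5% (25.8 to 29.3) of them had a UMI of Dab1 and of at least 1 receptor, against 17.6% (15.3 to 20.1) of Rorb- or Inhba-gated, 15.2% (11.2 to 19.9) of other Cux-gated and 6.96% (3.53 to 12.1) of layer V-like neurons. The share was 16.7% (10.5 to 24.6) in layer VI-like neurons and 15.6% (13.1 to 18.4) in the joint layer V and VI gates. Both intervals overlapped those of the Rorb- or Inhba-gated and other Cux-gated neurons. In newborn neurons 56.3% (51.1 to 61.3) had a receptor UMI without Dab1 and 9.64% (6.88 to 13.0) had both. In radial glia or astrocyte-like cells the reverse held, with Dab1 and no receptor in 30.2% (24.9 to 35.9) and both in 3.16% (1.45 to 5.91). In Lhx6 interneuron-like cells both were found in 2 of 147 cells, and in Cajal-Retzius-like cells in 0 of 29. At 2000 UMIs a cell that uses a gene can show none of it, and the shares at full depth were higher. Both were then found in 12 of 29 Cajal-Retzius-like, 18 of 149 Lhx6 interneuron-like, 134 of 386 newborn, 109 of 300 radial glia or astrocyte-like, 2050 of 2717 Igfbpl1-positive and 893 of 996 Rorb- or Inhba-gated cells, at median depths of 18228, 6426, 6722.5, 7174, 7515 and 12841 UMIs.

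Downstream of Dab1, the adaptor Crk varied far less between neural groups. Crk, which binds phosphorylated DAB1, had 6512 UMIs and stood between 60.3 CPM (44.0 to 80.6) in layer VIb-like and 104 CPM (84.1 to 127) in dividing cells among the neural groups of over 20 cells with a single name, and most of these intervals overlapped. Its relative Crkl was sparse, with 416 UMIs and 6.00% (5.46 to 6.59) of the UMIs of the pair. Crkl stood at 4.34 CPM (3.85 to 4.87) in excitatory cells and 6.59 CPM (3.60 to 11.1) in inhibitory cells, and 0 UMIs were found in Cajal-Retzius-like cells, which allows up to 5.58 CPM. A 3′ count depends on where a transcript ends, so the balance of the pair holds for captured ends only.

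Rapgef1, the exchange factor that loads Rap1, stood at 82.3 CPM (78.5 to 86.3) in Igfbpl1-positive neurons, 73.4 CPM (64.2 to 83.5) in newborn neurons and, among radial glia or astrocyte-like cells, 43.2 CPM (34.8 to 53.1). Newborn neurons held 1.70 (1.32 to 2.19) times the radial glia level. The upper-layer gates held 77.5 CPM and the deep-layer gates 49.8 CPM, a ratio of 1.55 (1.42 to 1.71) that resembled those of Dab1 and Lrp8 in size.

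Pafah1b1 was the most abundant of the 8 genes, with 48721 UMIs in 79.6% of cells. Unlike Dab1, it was higher in the deep-layer than in the upper-layer gates. The deep-layer gates held 734 CPM (718 to 750.2) and the upper-layer gates 528 CPM (521 to 535), a ratio of 0.719 (0.701 to 0.739). Within the deep layers the layer VIb-like level of 917 CPM (850 to 989) was above the layer VI-like level of 782 CPM (722 to 847), which was above the layer V-like level of 639 CPM (606 to 675). The upper-layer gates were also uneven. Igfbpl1-positive neurons held 481 CPM, while Rorb- or Inhba-gated neurons at 588 CPM and other Cux-gated neurons at 600 CPM lay nearer the layer V-like level. Cajal-Retzius-like cells held 739.8 CPM (669 to 816). Lower levels were found in oligodendrocyte lineage-like cells at 360.1 CPM (335 to 386), in dividing cells at 372 CPM (334 to 414) and among radial glia or astrocyte-like cells at 401 CPM (375 to 430), and newborn neurons held 443 CPM (420 to 467). The Adarb2 group was also low at 399 CPM (349 to 455), and the Lhx6 group held 1.48 (1.27 to 1.73) times that level.

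**Figure D5:**
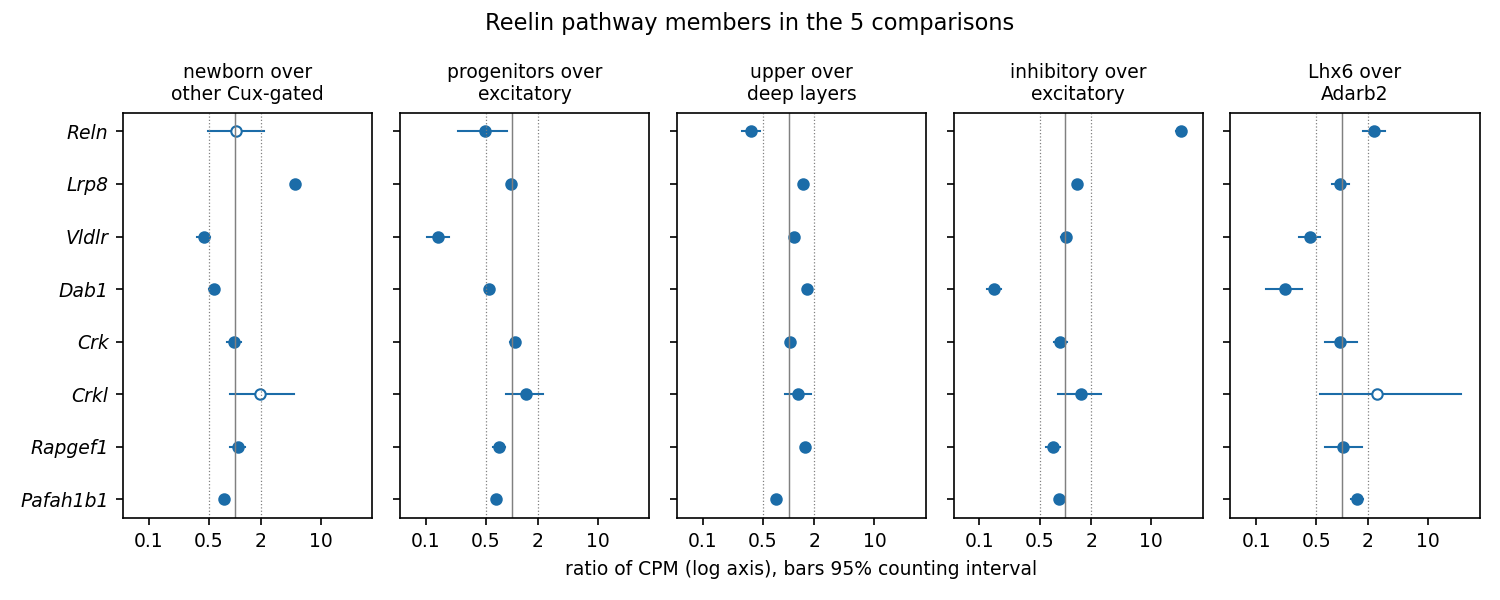
Ratio of CPM (log x axis) of the 8 genes in 5 comparisons of cell groups, with 95% counting intervals. Dotted lines mark 2-fold and open points are genes with fewer than 50 UMIs over both groups. The widest ratio is that of Reln between inhibitory and excitatory cells at 22.2. Crk, Rapgef1 and Pafah1b1 stay within 2-fold in all 5 comparisons.

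The rest of the pathway was described by 64 further genes in 9 lists, covering partners of the receptors, other ligands, Reelin proteases, receptor turnover, kinases, Dab1 turnover, Rap1 and adhesion, the cytoskeleton and the partners of Pafah1b1. Between newborn and other Cux-gated neurons 7 of 55 genes tested were at least 2-fold higher and 7 lower (7.54% and 7.43% of all genes), with a median ratio of 0.970 against 1.04 over all genes. Higher in newborn neurons were Apoe, a lipoprotein that binds the same receptors, at 9.14 (6.06 to 14.4) times, Adamts2, which cleaves Reelin, at 5.05 (2.95 to 9.18) times, Itgb1, the β1 integrin subunit, at 2.65 (2.17 to 3.24) times, Efnb1, an ephrin, at 3.26 (2.63 to 4.07) times and Snx17, a sorting protein that recycles lipoprotein receptors, at 2.38 (1.80 to 3.18) times. Lower were Nectin3, an adhesion protein of migrating neurons, at 0.230 (0.194 to 0.273), Dync1i1, a dynein chain, at 0.301 (0.258 to 0.351), the protease gene Adamts3 at 0.312 (0.196 to 0.483) and the microtubule genes Mapt at 0.369 (0.350 to 0.390) and Map1b at 0.425 (0.409 to 0.441). Nectin3 was also a check marker of the Cux gate. The Adamts2 direction depended on the second group, since newborn neurons at 30.3 CPM (24.5 to 37.0) lay above the other Cux-gated neurons at 6.01 CPM (3.43 to 9.75) but below the 2717 Igfbpl1-positive ones at 72.3 CPM (68.7 to 76.0), while the 9 other genes named here lay on the same side of both. None of the 13 kinases and 0 of the 3 Dab1 turnover genes differed 2-fold.

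Between upper-layer and deep-layer gates 5 of 59 pathway genes were at least 2-fold higher and 5 lower, against 5.62% and 6.81% of all genes. Adamts2 stood at 44.4 CPM in the upper-layer and 2.49 CPM in the deep-layer gates, a ratio of 17.8 (12.2 to 27.1). This upper-layer level came mainly from the Igfbpl1-positive neurons, which held 1518 of its 1642 UMIs at 72.3 CPM (68.7 to 76.0), whereas the Rorb- or Inhba-gated neurons held 8.11 CPM (6.66 to 9.80) and the other Cux-gated neurons 6.01 CPM (3.43 to 9.75). Nectin3, a check marker of the Cux gate, was 9.75 (8.58 to 11.1), Efnb2 3.04 (2.82 to 3.29), Nectin1 2.97 (2.47 to 3.59) and Fyn, a kinase of DAB1, 2.18 (2.07 to 2.29) times higher in the upper-layer gates. Among those lower there were Clu at 0.307 (0.267 to 0.353), Dync1i1 at 0.371 (0.358 to 0.384) and Plat at 0.435 (0.306 to 0.621).

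Between progenitors and excitatory cells 14 of 63 pathway genes were at least 2-fold higher and 21 lower, against 21.0% and 20.3% of all genes. All 4 other ligands of the receptors were higher in progenitors, among them Apoe at 2989 CPM against 10.6 CPM and Clu at 278 CPM against 18.7 CPM. Nde1, a partner of Pafah1b1 used in dividing cells, stood at 73.2 CPM against 0.795 CPM. Lower in progenitors were Dcx at 0.124 (0.111 to 0.138), Nrp1 at 0.108 (0.0750 to 0.152) and Dync1i1 at 0.0305 (0.0199 to 0.0447). Of the ligand-cleaving enzymes, Adamts5 was 9.60 (5.93 to 15.0) times higher in inhibitory than in excitatory cells, from 26 UMIs, and Adamts4 2.73 (1.27 to 5.201) times, from 10 UMIs, while Adamts2 was lower there at 0.0812 (0.0263 to 0.190) and Adamts3 at 0.147 (0.0588 to 0.303). In that comparison 6 of 62 pathway genes were higher and 7 lower, against 8.64% and 8.83% of all genes. The inhibitory Adamts2 level of 2.35 CPM, from 5 UMIs, lay close to the 2.49 CPM of the deep-layer gates. Its low ratio thus does not hold against deep-layer neurons alone. Between the Lhx6 and Adarb2 groups, where 8.51% of all genes were higher and 5.58% lower, 2 of 42 were higher, Efnb3 and Mapt, and 3 were lower, among them Pik3r1, the regulatory subunit of a lipid kinase, at 0.160 (0.103 to 0.242).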

How the data were processed

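P0 WT cortex, per the labels and the published methods, was digested with papain and captured with the 10x Chromium 3′ kit. The authors deposited raw UMI counts per gene and cell, with no normalization, and a table of counts per cell. The totals of both agreed in 11062 of 11062 cells, and 0 barcodes were duplicated. The processing notes of the submitters list mm9, STAR, Cell Ranger and Seurat. How cells were called and which annotation was used are not given in the sources used here. Coordinates and sequences are not given, since the reference at hand is of another build.

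The 8 genes, the lists, gates and comparisons were chosen with earlier results of these data known. A class gate required 2 or 3 markers and 3 to 5 UMIs. Cells past several class gates were set aside, except that the Cajal-Retzius gate took precedence over the newborn and excitatory gates, newborn over excitatory, oligodendrocyte lineage over dividing and radial glia, and dividing over newborn and radial glia. CPM left out mitochondrial genes (3.90% of UMIs). Intervals were exact Poisson intervals for levels, Clopper-Pearson intervals for shares and conditional binomial intervals for ratios, all at 95%. They cover counting error only. A count of 0 allows 3 UMIs. Genes with at least 50 UMIs over both groups were compared, and a 2-fold difference was counted. Pathway genes named in a comparison came from the 5 with the largest ratio in each direction among those with at least 100 UMIs. Thinning and Scrublet used fixed seeds. The automatic Scrublet threshold of 0.555 marked 0 cells, so the 553 cells with the highest scores were marked, a choice made after seeing this. Calculations used Python 3.11.15, NumPy 2.4.6, SciPy 1.17.1, pandas 2.3.3 and scanpy 1.11.5 and were tested on simulated counts. Some genes of the pattern search and the pathway lists are not reported here.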

Additional observations from a re-analysis of the deposited data

How the results depend on the processing

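No paired analysis was possible because all cells came from 1 library. Of 109 values recomputed under alternatives, 71 stayed within their interval or within 1.5 times a count, 38 moved, and 0 ratios whose interval lay off 1 turned in direction. The Lrp8 ratio of progenitors over excitatory cells, whose interval held 1, lay on either side of it. The causes were not tested. Depth limits the small groups and Crkl.

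With at least 1000 genes per cell the Cajal-Retzius-like share of Reln was 65.5%, without high-scoring doublets 66.5%, with 2 UMIs more per gate 59.2% and without cells past the excitatory gate 39.6%. With gates on thinned cells it was 2.66%, when 1 cell passed the gate in place of 29, and the inhibitory share was 3.03%. That setting also gave ratios of 52.0 for Reln in Cajal-Retzius-like over inhibitory cells, 1.52 (0.930 to 2.48) for Reln in Lhx6 over Adarb2 cells, 0.0529 for Reln in excitatory over inhibitory cells, 4.32 for Lrp8, 0.193 for Vldlr and 0.0888 for Dab1 in newborn over other Cux-gated neurons, 0.704 for Lrp8 and 0.198 for Vldlr in progenitors over excitatory cells, and 1.49 for Dab1 and 1.65 for Lrp8 in upper-layer over deep-layer gates. With cells of several gates kept, the inhibitory share was 13.5%, the Cajal-Retzius-like over inhibitory ratio 41.6, the excitatory over inhibitory ratio 0.0831, and in progenitors over excitatory cells Lrp8 was 1.20 and Vldlr 0.291. As means over single cells, these were 34.1 and 0.0534 for Reln, 0.363 for Dab1 in newborn over other Cux-gated neurons, 0.788 for Lrp8 in progenitors and 1.66 for Lrp8 in the upper-layer gates.

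With 2 UMIs more per gate the newborn over other Cux-gated ratios were 0.298 for Dab1, 5.97 for Lrp8 and 0.297 for Vldlr. Without high-scoring doublets they were 0.486 for Dab1 and 0.354 for Vldlr. With Igfbpl1-positive neurons counted in, chosen after seeing the data, they were 0.354 for Dab1, 2.43 for Lrp8 and 0.573 for Vldlr. Asking for 200 UMIs per gene in place of 50 left 542 in place of 1416 genes at least 2-fold apart between newborn and other Cux-gated neurons, 1060 in place of 1760 between layers, 1582 in place of 2648 between inhibitory and excitatory cells and 172 in place of 778 between interneuron groups. Fewer genes were compared, and the share at least 2-fold apart was also smaller, at 10.7% in place of 15.0%, 9.64% in place of 12.4%, 13.2% in place of 17.5% and 10.5% in place of 14.1%.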

Other observations

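Lrp8 was not only a gene of neurons. The 18 endothelial-like cells held Lrp8 at 779 CPM (667 to 904), above the 504 CPM (479 to 529) of newborn neurons, with a UMI in 18 of 18 cells, a median of 8 and a maximum of 26. The same cells held 0 Vldlr UMIs, which allows up to 13.5 CPM, and 2 Dab1 UMIs. After thinning, 14 of 17 cells had an Lrp8 UMI and 0 had Dab1. Crk was also higher there, at 189 CPM (136 to 256). The 23 mural cells held 3 Lrp8 UMIs and the 20 microglia-like cells 3. Of the 7 cells of the library with at least 20 Lrp8 UMIs, 6 held at least 235 UMIs of Cldn5, a tight junction gene of brain endothelium. Of these 6 cells, 2 were endothelial-like and 4 had passed several gates, the highest with 56 Lrp8 UMIs among 92061 in all. These cells were picked after their Lrp8 had been seen.

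Only 7 cells passed the striatal gate alone among inhibitory cells. All 7 had a Vldlr UMI, 18 in total, and 4 of 7 had an Lrp8 UMI. Their Vldlr level of 265 CPM (157 to 419) was above that of the Adarb2 group at 198 CPM (163 to 238), with overlapping intervals.

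The patterns most like those of 4 of the genes were sought over 20 groups of cells and 12682 genes by Pearson r of log2(CPM + 1). All points come from 1 library and differ in depth and in cell number, so the values are a description. For Vldlr these were Atat1 (r = 0.968), Rab33a, Celf3, Gm45264 and Cacna1h (r = 0.958). For Dab1 they included Nckap5 (r = 0.893), Fpgt, Zbtb18 and Gm37936 (r = 0.855), for Reln Gm43885 (r = 0.900), Gm43874, Syn2, Rcan2 and Snhg11 (r = 0.852), and for Lrp8 Anks1 (r = 0.824), Rbm5, Zkscan3, Gm37183 and Afdn (r = 0.769).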
